A study of Bos taurus with 9 samples.

Results

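Expression of 10 heat shock genes was followed after salt stress in cultured bovine nucleus pulposus cells, which in the body fill the centre of each spinal disc. The genes were CRYAB, HSPB1, HSPA1A, HSPA8, HSPH1, HSPA4, DNAJB1, HSP90AA1, HSPD1 and HSPE1, out of 9155 genes named by the array. All probe sets annotated to only 1 of these symbols were taken, which gave 22 probe sets. The cells came from caudal discs of young calves and were grown in DMEM with serum in all groups. They were exposed to salt at 500 mOsm/kg for 5 h (3 arrays), to the same salt for 24 h (3 arrays), or left untreated as control (3 arrays). Replicates are numbered 1 to 3 in each group and are described as biological, but the labels do not say whether they came from separate animals, and p-values therefore reflect only how far these samples varied, which may be technical. Array medians lay between 67.1 and 84.5 intensity units. The control carries no time in the labels and serves both time points, so changes with time in culture and changes with salt cannot be told apart.

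Heat shock proteins are chaperones: they bind unfolded or damaged proteins, prevent clumping and help refolding. Small heat shock proteins such as CRYAB and HSPB1 hold unfolding clients without using ATP. HSP70 proteins fold clients in ATP-driven cycles that J-domain proteins such as DNAJB1 start and HSP110 proteins such as HSPH1 and HSPA4 help to reset, while HSP90 matures signalling proteins and the HSPD1 and HSPE1 chaperonin folds proteins inside mitochondria. HSF1 is the main transcription factor for heat shock genes, and in kidney cells the tonicity-responsive factor NFAT5 raises HSP70 under high salt. Disc cells live in a tissue whose osmolality shifts with load. NFAT5 was not analysed here.

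The 10 genes did not move as a block. After 24 h in salt CRYAB was 8.03-fold higher than in control, while HSPA8 and HSPD1 were lower. HSPA1A was higher, by a smaller amount, in 3 of its 6 probe sets and lower in 2. HSPH1 was higher by a small amount, and its call was lost whichever array was left out, in fits that ignored the replicate number. With that number as a block, on all 9 arrays, every 24 h call named so far was kept (adjusted p up to 0.0056). HSPA4, HSP90AA1 and HSPE1 were not called in the main fit, but were called lower with the replicate number as a block. After 5 h, 0 of the 21 probe sets tested were called by limma, the linear model test used throughout on log2(intensity + 16), against 0.483% of all 18012 probe sets. A call means an adjusted p under 0.05 over all probe sets tested. At an unadjusted p under 0.05 there were 6 at 5 h, with the share of all probe sets at that threshold not counted. Without that share, these 6 cannot be read as many or few. With the replicate number as a block in the fit, 4 were called at 5 h, all higher, where 5.86% of all probe sets were called (2.45% higher and 3.41% lower). All 3 salt arrays lay above all 3 control arrays for 4 of the 21 at 5 h, as for 4.04% of all probe sets. At 24 h against control 9 of the 21 were called, where 8.61% of all were: 5 rose, against 4.28%, and 4 fell, against 4.32%. With the block 15 were called, where 35.8% of all were: 5 rose (18.3%) and 10 fell (17.5%). At 24 h the groups did not overlap for 5 that were higher (13.9% of all) and for 9 that were lower (13.5%). Of all probe sets, 1550 were called at 24 h against control, and 304 to 1533 when 1 array was left out. Among the 21, 1 rose and 1 fell without control replicate 2, control replicate 3 or salt 24 h replicate 1. Without salt 24 h replicate 2 the counts were 1 and 4, and without salt 24 h replicate 3 they were 3 and 2. Without salt 5 h replicate 1 they were 3 and 4. Their median log2 change was 0.23 at 5 h and -0.29 at 24 h, beside -0.030 and 0.023 for all probe sets tested. The twenty-second probe set, a dim one of HSPB1, fell below the filter on low values and was not tested.

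**Figure D1:**
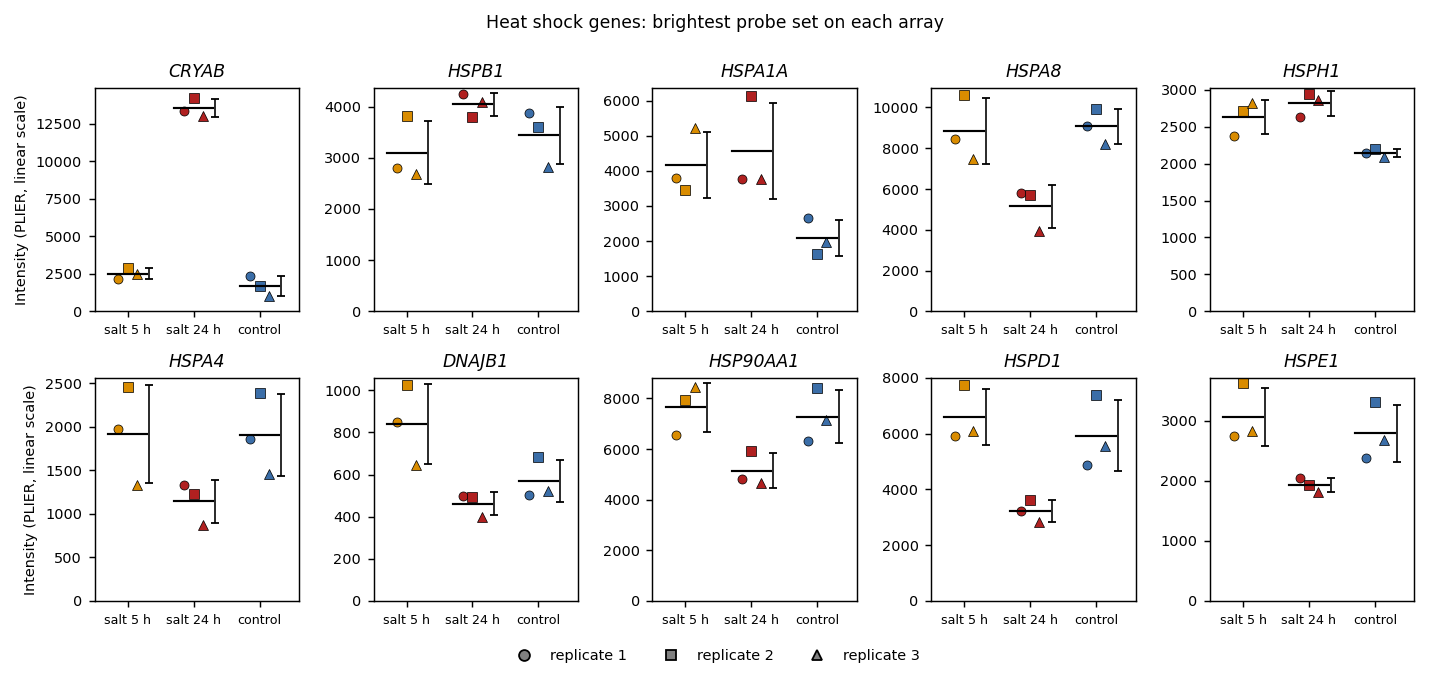
Intensity (PLIER, linear scale from 0) of the brightest probe set of each gene on the 3 salt 5 h, 3 salt 24 h and 3 control arrays, with symbols for the replicate number, lines for group means and bars for 1 SD. CRYAB stands between 13054 and 14235 at 24 h, above all other arrays, and HSPA8 and HSPD1 stand lower at 24 h than on any control or 5 h array.

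CRYAB, also called alpha B-crystallin, is a small heat shock protein abundant in lens, heart and skeletal muscle. Its 1 probe set had intensities of 2189, 2885 and 2471 at 5 h, of 13375, 14235 and 13054 at 24 h, and of 2369.5, 1691 and 1003 in control. The 24 h arrays were far above all others, and the 5 h and control arrays overlapped. The log2 change at 24 h was 3.08 ± 0.26 against control (SE; 95% interval 2.48 to 3.67; adjusted p = 0.0018), and 2.43 ± 0.26 against 5 h (adjusted p = 0.0026). At 5 h it was 0.65 ± 0.26 against control, with adjusted p = 0.60. Leaving out any of the 9 arrays kept the 24 h call, with log2 changes from 2.75 to 3.36. Without the control probe sets of the manufacturer, CRYAB ranked 3, 1 and 3 from the top on the 24 h arrays, against 826, 1287 and 2309 on the control arrays. The brightest probe set of any array read 13754 to 15435, so CRYAB stood near the top of the scale and its rise may be understated.

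The gene beside CRYAB in the current bovine gene table is HSPB2, which encodes another small heat shock protein, best known from muscle. HSPB2 had intensities of 619, 856 and 599 at 24 h, against 228, 224 and 224 in control, and rose by 1.53 ± 0.19 on the log2 scale (adjusted p = 0.0050). At 5 h it read 232, 204 and 284, with a log2 change of 0.075 ± 0.188 against control (adjusted p = 0.9998). Both neighbours were thus called at 24 h and neither at 5 h, and HSPB2 was higher at 24 h than at 5 h by 1.46 ± 0.19 (adjusted p = 0.0039). The 24 h call of HSPB2 held in all 9 refits that left out 1 array, at log2 changes of 1.37 to 1.63.

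The other small heat shock genes gave smaller values. HSPB1, the widely expressed HSP27, read 2800, 3807 and 2692 at 5 h, 4251, 3793 and 4082 at 24 h, and 3880, 3608 and 2823 in control. Its groups overlapped, with a log2 change of 0.24 ± 0.16 at 24 h against control (95% interval -0.12 to 0.61; adjusted p = 0.44). Against 5 h it was 0.40 ± 0.16 with adjusted p = 0.14, and 0.030 with the block. HSPB6, a muscle-type member, stood at 0.66 ± 0.83 at 24 h against control (adjusted p = 0.74, and 0.0028 with the block), and HSPB8, which works with BAG3 in protein disposal, at 0.76 ± 0.46 (adjusted p = 0.39). CRYAA, the lens partner of CRYAB, stood at -0.23 ± 0.24 (adjusted p = 0.66). Of the 6 members of this class tested, CRYAB and HSPB2 rose and 0 fell, where 4.28% and 4.32% of all probe sets did. The median log2 change of the class was 0.71. With the block 3 rose, where 18.3% of all probe sets did. At 24 h against 5 h HSPB6 and HSPB8 stood at 0.91 and 0.89 (adjusted p = 0.55 and 0.25, and 0.00040 and 0.023 with the block). HSPB6, HSPB8 and CRYAA were named after their values were seen.

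Of all probe sets tested, 4.28% rose and 4.32% fell at 24 h against control, and 18.3% and 17.5% with the block. These shares stand beside each marker list below. CRYAB, HSPB2 and HSPB6 are also muscle genes, and of 7 muscle markers tested, 1 rose and 0 fell at 24 h (median log2 change 0.18). It was creatine kinase CKM, which rose by 1.99 ± 0.45 (adjusted p = 0.032); at 5 h it stood at 1.57 ± 0.45 (adjusted p = 0.28, and 0.010 with the block). The CKM call at 24 h was lost when any 1 of the 6 control and 24 h arrays was left out, with adjusted p up to 0.12. CKM read 3002, 814 and 2932 at 5 h, 3280, 1933 and 2742 at 24 h, and 664, 582.5 and 678 in control. The summed intensity of 9 muscle markers was 1401 to 3749 at 5 h, 2388 to 3844 at 24 h and 1094 to 1436 in control, most of it CKM, which averaged 2249 at 5 h, 2652 at 24 h and 641 in control. The actin ACTA1 averaged 198 at 24 h and 307 in control, with a log2 change of -0.60 ± 0.24 (adjusted p = 0.16, and 0.0023 with the block), and the myosin MYH7 stood at 0.52 ± 0.29 (adjusted p = 0.34, and 0.039 with the block). Desmin (DES) stayed near the floor, at 30.6 ± 7.2 at 24 h and 23.2 ± 8.0 in control (SD, n = 3 each), myoglobin (MB) read 75.5 ± 17.4 and 65.2 ± 18.4, TNNT3 and TNNC2 stood at -0.16 and -0.38 (adjusted p = 0.80 and 0.53), and the myosin MYH1 and troponin TNNT1 were below the filter. The part of muscle-type cells in the CRYAB result was not tested. Of 5 leukocyte markers tested, CD14 alone rose at 24 h, by 1.43 (adjusted p = 0.0054), and the median log2 change was 0.10. CD14 averaged 72.8 at 5 h, 285.6 at 24 h and 95.6 in control, and the summed level of the 7 measured was 217 to 232 at 5 h, 407 to 442 at 24 h and 212 to 230.3 in control. Of 4 annulus and tendon fibroblast markers tested, 2 rose and 0 fell at 24 h, with a median of 0.48: COL12A1 by 1.73 ± 0.18 (adjusted p = 0.0033, kept in all 9 refits that left out 1 array) and THY1 by 0.74 ± 0.18 (adjusted p = 0.037, kept in 2 of 9, and up to 0.14). In the same list TNC stood at 0.21 ± 0.13 (adjusted p = 0.41) and COL1A1 at -0.32 ± 0.58 (adjusted p = 0.84, and 0.046 with the block), and the summed level of 5 was 14242 to 14742.5 at 5 h, 18705 to 21434 at 24 h and 13864 to 20975 in control. The part of these cell types in the results was not tested. Endothelial, erythroid and lens markers had 0 called of 4, 2 and 4 tested, and with the block 1 endothelial marker, TEK, was higher. CD14, COL12A1, THY1, TNC, COL1A1 and TEK were named after their values were seen. Of 6 nucleus pulposus and notochordal markers tested, 0 were called at 24 h against control: ACAN, COL2A1, KRT18, CDH2, SLC2A1 and BASP1. Their median log2 change was -0.10. The summed intensity of the 8 measured was 9635 to 9721 at 5 h, 8885 to 12014 at 24 h and 8809 to 9754 in control. In control and at 24 h, ACAN and COL2A1 made up the smaller part of this sum, which rests mainly on other genes of the list. SOX9, CD24, TBXT, FOXF1, PAX1 and CA12 of the same list were not analysed here. Aggrecan (ACAN) read 1505.6 to 4026 at 24 h and 497 to 2139 in control (log2 change 1.35 ± 0.56; adjusted p = 0.19, and 0.00041 with the block), COL2A1 read 29.1 to 221 and 40.0 to 329.7, KRT18 was near the floor, and KRT8 and KRT19 were below the filter.

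HSPA1A encodes the stress-inducible HSP70, and its 6 probe sets, numbered here from 1 by falling brightness, disagreed. Probe set 1 read 3802, 3448 and 5221 at 5 h, 3781, 6128 and 3776 at 24 h, and 2658, 1629.9 and 1968 in control. Every salt array was above every control array, while the 5 h and 24 h arrays overlapped. It rose at 24 h by 1.11 ± 0.25 on the log2 scale (adjusted p = 0.031), and probe sets 2 and 3 rose by 1.23 ± 0.26 and 1.48 ± 0.28 (adjusted p = 0.024 and 0.018). These 3 calls were lost without control replicate 2 (adjusted p = 0.12, 0.072 and 0.060), and likewise without control replicate 3, 24 h replicate 1 or 24 h replicate 2, with adjusted p between 0.058 and 0.085. That of probe set 1 was also lost without 5 h replicate 1 (0.057) and that of probe set 2 without 24 h replicate 3 (0.054). With only the 6 arrays compared, those of probe sets 1 and 2 were lost as well (0.057 and 0.053). With the replicate block and all arrays, all 3 calls were kept (0.0056, 0.0025 and 0.0017). At 5 h the 3 stood at 0.996, 1.03 and 1.28 against control, with adjusted p = 0.195, 0.19 and 0.12, and 0.041, 0.027 and 0.017 with the replicate block. Between 24 h and 5 h their log2 values differed by 0.12, 0.20 and 0.21, with adjusted p = 0.83, 0.69 and 0.71; the 95% interval for probe set 1 ran from -0.45 to 0.69.

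Probe sets 4 and 5 of HSPA1A did the reverse. Probe set 4 read 971, 1049.6 and 901 at 5 h, 322.5, 312 and 403 at 24 h, and 690.3, 996.5 and 1029.8 in control. The 24 h arrays lay below all others, with a log2 change of -1.34 ± 0.19 against control (adjusted p = 0.0068) and of -1.46 ± 0.19 against 5 h (adjusted p = 0.0038), both kept whichever array was left out. Probe set 5 read 788, 838 and 606 at 5 h, 207, 261 and 230.2 at 24 h, and 380.0, 678 and 674 in control. Its log2 change was -1.21 ± 0.24 against control (adjusted p = 0.021) and -1.60 ± 0.24 against 5 h (adjusted p = 0.0060). The call against control was lost without control replicate 2, control replicate 3, 24 h replicate 1 or 24 h replicate 3 (adjusted p = 0.090, 0.072, 0.087 and 0.052), and with only the 6 arrays compared (0.051). With the block and all arrays it was kept (0.00094). Probe set 6, the dimmest, stood at -0.68 ± 0.75 at 24 h against control (adjusted p = 0.69, and 0.024 with the block) and at -0.95 ± 0.75 against 5 h (adjusted p = 0.47, and 0.0039 with the block).

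Over the 9 arrays, the 3 probe sets that rose correlated with each other at r = 0.97 to 0.996, the pair that fell at 0.96, and members of opposite sets at -0.57 to -0.39. These are descriptions over arrays that share their groups and replicate numbers. The annotation does not sort them: probe sets 1, 4 and 5 carry the same gene number, 282254, whereas probe sets 2 and 3 carry 281825, which is not in the current gene table. With all 6 averaged, the log2 change of HSPA1A at 24 h was 0.10 against control with adjusted p = 0.80, and -0.58 against 5 h with adjusted p = 0.039. Close relatives of HSPA1A could share probes with it, so which transcripts each probe set reads is uncertain. HSPA1L, its neighbour in the gene table, was not analysed here. HSPA2, an HSP70 gene best known from the testis, read 975 ± 35 at 24 h and 592 ± 141 in control (SD, n = 3 each), with a log2 change of 0.73 ± 0.20 (adjusted p = 0.059, and 0.0014 with the block); against 5 h it was 0.57 ± 0.20 (adjusted p = 0.099, and 0.0038 with the block). HSPA2 was named after its values were seen.

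**Figure D2:**
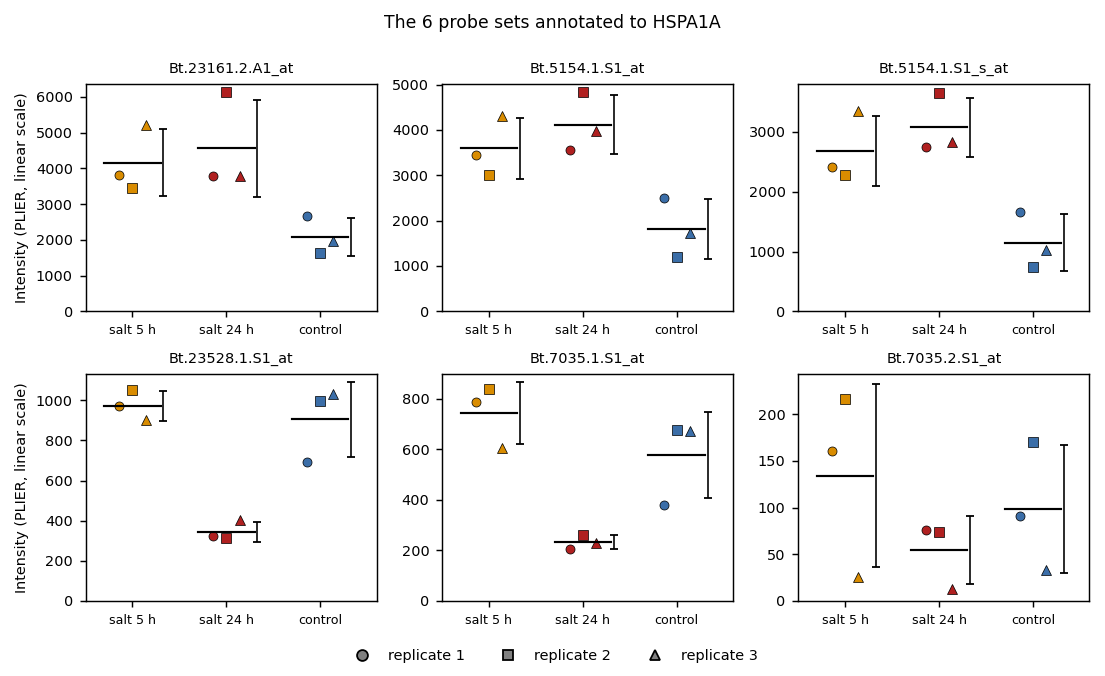
Intensity (PLIER, linear scale from 0) of the 6 probe sets annotated to HSPA1A on the salt 5 h, salt 24 h and control arrays, with symbols for the replicate number, lines for means and bars for 1 SD. Panels run from probe set 1, top left, to 6, bottom right; in the top row all 24 h arrays lie above all control arrays, and in the first pair of the bottom row all lie below.

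HSPA8, the constitutive HSP70 that folds new proteins and uncoats vesicles, read 8461, 10618 and 7451 at 5 h, 5783, 5721 and 3928 at 24 h, and 9092, 9912 and 8218 in control. The 24 h arrays were below all others, and the 5 h and control arrays overlapped. HSPA8 had a log2 change of -0.83 ± 0.18 at 24 h against control (95% interval -1.24 to -0.43; adjusted p = 0.025) and of -0.79 ± 0.18 against 5 h (adjusted p = 0.022). The call against control was lost without control replicate 1, 2 or 3 (adjusted p = 0.055, 0.10 and 0.055) or 24 h replicate 1 (0.060), and that against 5 h without 5 h replicate 1 or 2 (0.069 and 0.068). With the block and all arrays, both HSPA8 calls were kept (0.00019 and 0.00017). At 24 h against control HSPA14, an HSP70-like protein of the ribosome-associated complex, fell by 0.99 ± 0.21 (adjusted p = 0.025, and up to 0.10 when 1 array was left out, with 4 of 9 refits keeping the call). In bulk cultures such as these, fewer cells of a kind and less RNA per cell cannot be told apart.

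The HSP110 genes, which help HSP70 exchange nucleotide, differed in direction. HSPH1 read 2375.5, 2712 and 2816 at 5 h, 2631, 2946 and 2866 at 24 h, and 2139, 2196 and 2091.5 in control by its brightest probe set. Every salt array was above every control array. Its rise at 24 h was small, 0.39 ± 0.10 on the log2 scale (adjusted p = 0.048, and 0.0041 with the block). Without the block, the call ended in all 9 refits that left out 1 array, with adjusted p from 0.059 to 0.14. It was also lost with no filter on dim probe sets (0.067), with only the 6 arrays compared (0.079), without an intensity trend (0.10), with each array centred on its median (0.16), without the arrays numbered 3 (0.16) and with all 4 HSPH1 probe sets averaged (0.93). That average cannot decide, because probe sets 2, 3 and 4 were far lower on the arrays numbered 3. Their log2 changes at 24 h were 0.22 ± 1.15, 0.15 ± 1.36 and 0.21 ± 0.61. HSPA4 read 1968.5, 2455 and 1331 at 5 h, 1331, 1233.5 and 868 at 24 h, and 1863, 2393 and 1454 in control by its brighter probe set. All 24 h arrays were below all control arrays, but the log2 change of -0.72 ± 0.27 had adjusted p = 0.14, 0.00085 with the replicate block, 0.048 without the arrays numbered 3 and 0.0496 with both probe sets averaged. Against 5 h it was -0.72 ± 0.27 (adjusted p = 0.12, and 0.00063 with the block), and it was called there with arrays centred (0.037), without the arrays numbered 3 (0.025), without 5 h replicate 3 (0.049) and with both probe sets averaged (0.036). Its dimmer probe set stood at -0.41 ± 0.18 against control (adjusted p = 0.21, and 0.030 with the block) and at -0.43 ± 0.18 against 5 h (adjusted p = 0.16, and 0.022 with the block).

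DNAJB1, a J-domain partner of HSP70, read 847, 1025 and 647 at 5 h, 497, 492 and 398 at 24 h, and 503, 682 and 523 in control by its brighter probe set. It was lower at 24 h than at 5 h on every array, with a log2 change of -0.82 ± 0.20 (adjusted p = 0.030). This call was lost without 5 h replicate 1 or 2 (adjusted p = 0.105 and 0.090) or 24 h replicate 1, 2 or 3 (0.078, 0.062 and 0.086). It was also lost with only the 6 arrays compared (0.052) and with both probe sets averaged, at a log2 change of -0.40 (0.31). Against control it stood at 0.54 ± 0.20 at 5 h (adjusted p = 0.53, and 0.031 with the block) and at -0.29 ± 0.20 at 24 h (adjusted p = 0.48). The dimmer DNAJB1 probe set did not show this pattern, with log2 changes of -0.15 ± 0.36 at 5 h and -0.13 ± 0.36 at 24 h against control. On control replicate 3 it read 385, against 116 and 212 on the other control arrays.

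HSP90AA1, the stress-inducible cytosolic HSP90, read 6563, 7926 and 8436 at 5 h, 4826, 5932 and 4677 at 24 h, and 6304, 8392 and 7138 in control. All 24 h arrays were below all others. The log2 change at 24 h was -0.50 ± 0.14 against control (adjusted p = 0.068, 0.0021 with the block and 0.046 with quantile normalization) and -0.57 ± 0.14 against 5 h (adjusted p = 0.032). The call against 5 h was lost without 5 h replicate 2 or 3 (0.093 and 0.083) or 24 h replicate 1 or 3 (0.11 and 0.088), without all arrays numbered 3 (0.12), without an intensity trend (0.063) and with both probe sets averaged (0.17). The dimmer probe set stood at -0.78 ± 0.64 against control (adjusted p = 0.55, and 0.0016 with the block) and at -1.01 ± 0.64 against 5 h (adjusted p = 0.35, and 0.00032 with the block).

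HSPD1 and HSPE1, which form the mitochondrial chaperonin and lie next to each other in the gene table, had like courses. HSPD1 read 5918, 7761 and 6103 at 5 h, 3217, 3638 and 2820.0 at 24 h, and 4888, 7370 and 5546 in control. HSPE1 read 2748, 3624 and 2832 at 5 h, 2044, 1927 and 1811.5 at 24 h, and 2386, 3309 and 2676 in control. For both, the 24 h arrays were below all others, and the 5 h arrays overlapped with control. HSPD1 had a log2 change at 24 h of -0.86 ± 0.17 against control (adjusted p = 0.021) and of -1.03 ± 0.17 against 5 h (adjusted p = 0.0085), the second kept whichever array was left out. The first was lost without control replicate 2 or 3 (0.071 and 0.057) or 24 h replicate 1 or 3 (0.078 and 0.058). With the block and all arrays, both HSPD1 calls were kept (0.00013 and 4.4e-05). HSPE1 had a log2 change of -0.52 ± 0.15 against control (adjusted p = 0.071, 0.0044 with the block and 0.048 with arrays centred) and of -0.66 ± 0.15 against 5 h (adjusted p = 0.024). The call against 5 h was lost without 5 h replicate 1 or 2 (0.055 and 0.070) or 24 h replicate 1, 2 or 3 (0.067, 0.062 and 0.067), and without the arrays numbered 3 (0.0504). Over the 9 arrays the pair correlated at r = 0.978. This was not particular to the pair: the 5 genes closest to HSPD1, named below, correlated with it at 0.987 to 0.996, and HSPE1 was not among them.

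**Figure D3:**
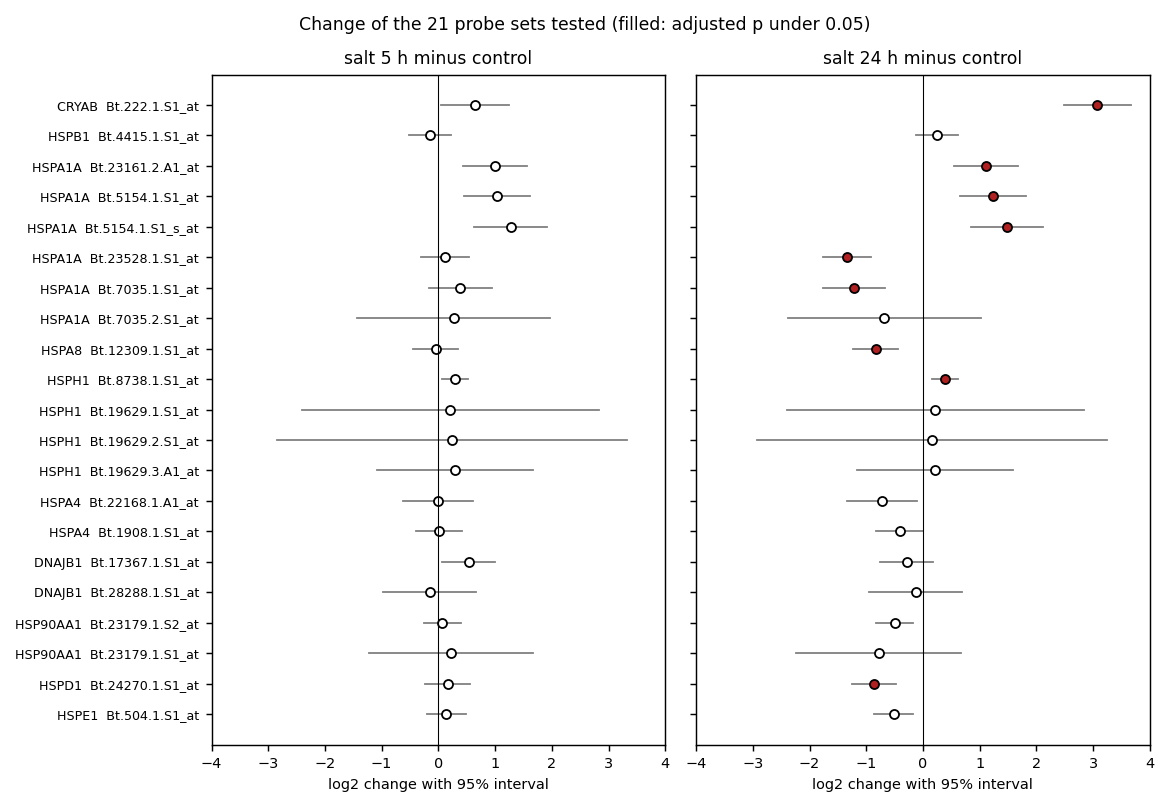
log2 change against control with its 95% interval for the 21 probe sets tested, at 5 h (left) and 24 h (right), filled where adjusted p was under 0.05. CRYAB stands apart at 24 h at 3.08, 4 other probe sets lie above 0 and 4 below among those filled, and 2 dim probe sets of HSPH1 have the widest intervals.

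For 24 h against 5 h, 8 of the 21 probe sets were called, where 14.2% of all were: 1 rose (CRYAB), against 8.01%, and 7 fell, against 6.15%. With the block 13 were called, where 43.8% of all were: 2 rose (24.2%) and 11 fell (19.6%). Groups did not overlap for 1 that was higher (18.1% of all) and 7 that were lower (14.3%). Of all probe sets, 2551 were called in this comparison, and 854 to 2429 when 1 array was left out. Among the 21, 4 and 3 fell without 5 h replicate 1 or 2, and 4, 5 and 4 fell without 24 h replicate 1, 2 or 3. Those that fell with all arrays were the HSPA1A pair described above, HSPA8, DNAJB1, HSP90AA1, HSPD1 and HSPE1. The array medians were 0.15 higher at 24 h than at 5 h on the log2 scale. With each array centred on its median, the 24 h minus 5 h changes were lower by that amount, and those of HSPA1A (brightest) and HSPH1 changed sign, at -0.036 and -0.057. No called value of the 10 genes changed sign under centring.

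Arrays numbered 3 stood apart on some probe sets in all 3 groups. HSPH1 probe set 2, by brightness, read 22.2 at 5 h, 22.4 at 24 h and 18.0 in control on the arrays numbered 3, whereas the other arrays read 229 to 313. HSPH1 probe set 3 read 4.8 to 12.7 on those arrays and 199 to 265 on the others, although the brightest HSPH1 probe set read 2091.5 to 2866 on them. The same split was present in HSPH1 probe set 4, in the dimmer HSP90AA1 probe set and in probe set 6 of HSPA1A. In these 5 of 21 probe sets (23.8%) the array numbered 3 was more than 1 log2 unit below the mean of the other pair in every group, as were 6.13% of all probe sets tested. Within each replicate number, the dimmer HSP90AA1 probe set was lower at 24 h than in control in 3 of 3 pairs, as was the brighter.

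**Figure D4:**
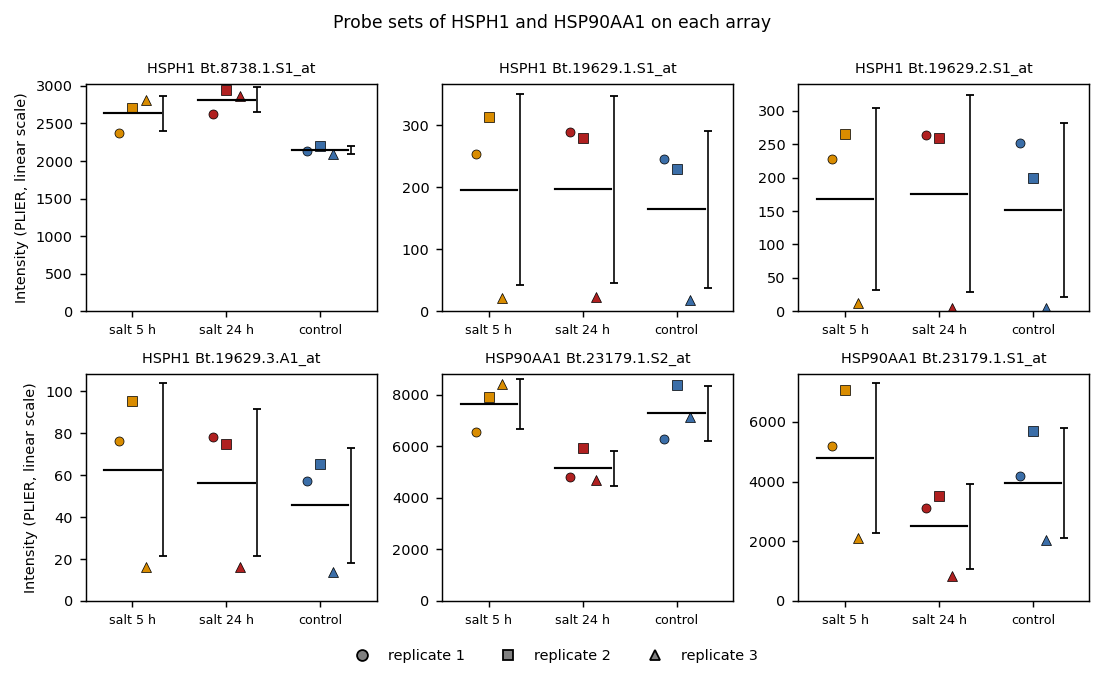
Intensity (PLIER, linear scale from 0) of the 4 HSPH1 and 2 HSP90AA1 probe sets on the salt 5 h, salt 24 h and control arrays, with symbols for the replicate number, lines for means and bars for 1 SD. Triangles, the arrays numbered 3, stand far below the others in 3 HSPH1 probe sets and 1 HSP90AA1 probe set in every group, but not in the brightest of either gene.

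Among 69 other chaperone genes tested, 2 rose and 9 fell at 24 h against control, where 4.28% of all probe sets rose and 4.32% fell, with a median log2 change of -0.23 beside 0.023 for all probe sets. With the block 10 rose and 30 fell, where 18.3% and 17.5% of all did. Of all probe sets, 1550 were called in that comparison, and 304 to 1533 when 1 array was left out. Among the 69, 1 rose and 0 fell without control replicate 2 or 24 h replicate 1, and 1 and 1 without control replicate 3. Without 24 h replicate 2 they were 2 and 3, without 24 h replicate 3 they were 3 and 5, and without 5 h replicate 1 they were 2 and 4. At 5 h 0 were called by limma, where 0.483% of all probe sets were, and 0 with the block, where 5.86% were. An unadjusted p under 0.05 was met by 0 of the 69, with the share of all probe sets at that threshold not counted. This count too has no background to be read against. The 2 that rose were HSPB2 and HSF4, a heat shock transcription factor best known from the lens. HSF4 was dim, at 130, 92.0 and 118 at 24 h, against 51.1, 43.7 and 53.2 in control, and its log2 change of 0.98 ± 0.19 (adjusted p = 0.019) is understated near the floor. That call was lost without control replicate 2, control replicate 3 or 24 h replicate 1, with adjusted p up to 0.085. HSF1 stood at -0.14 ± 0.36 (adjusted p = 0.90) and HSF2 at 0.0037 ± 0.1713 (adjusted p = 0.996). HSF1 and HSF2 were named after their values were seen.

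The chaperonin CCT, which folds actin and tubulin, and its partner prefoldin had 5 of 12 genes called at 24 h against control. All 5 were lower, where 4.32% of all probe sets were lower, and the median log2 change of the class was -0.63. With the block 9 were lower and 1 higher, where 17.5% and 18.3% of all were. Prefoldin subunit PFDN6 fell by 1.09 ± 0.20 (adjusted p = 0.015) and VBP1 by 0.93 ± 0.19 (adjusted p = 0.022). CCT5, CCT8 and PFDN1 were the others. Of these calls, PFDN6 kept 6 of 9 and VBP1 5 of 9 when 1 array was left out, CCT8 4, and CCT5 and PFDN1 2 each, with adjusted p up to 0.15. DNAJC9, a J-domain protein that also binds histones, fell by 1.27 ± 0.22 (adjusted p = 0.013; 0.060 at most with 1 array left out, 7 of 9 called), to 88.0 ± 6.6 at 24 h, against 239.5 ± 56.9 in control (SD, n = 3 each). Of the 10 mitochondrial chaperones HSPD1 and GRPEL1 fell, and of the 10 endoplasmic reticulum chaperones CANX fell, calls that held in 2 of 9 refits for GRPEL1 and in 3 of 9 for CANX, with adjusted p up to 0.13. With the block 4 mitochondrial and 6 endoplasmic reticulum chaperones were lower and 0 of either were higher. The median log2 changes of these classes were -0.28 and -0.52. CCT5, CCT8, PFDN1, GRPEL1 and CANX were named for this comparison after their values were seen. HSP90 and its co-chaperones had 0 of 10 called by limma and 5 lower with the block. HSP70 exchange factors and co-chaperones had 0 of 9 called, and 2 higher and 5 lower with the block. With the block 18.3% of all probe sets were higher and 17.5% lower. For 24 h against 5 h, 5 of the 69 rose and 15 fell, where 8.01% and 6.15% of all probe sets did. With the block 11 rose and 33 fell, where 24.2% and 19.6% did. Of all probe sets, 2551 were called there, and 854 to 2429 when 1 array was left out. Of the 69, 2 rose and 4 fell without 24 h replicate 1, 3 and 11 without 24 h replicate 2, and 3 and 9 without 24 h replicate 3. Without 5 h replicate 1 or 2 they were 3 and 5, and 3 and 8. The smallest adjusted p in that comparison were those of HSPB2, HSF4 (1.32 ± 0.19), DNAJC9 (-1.37 ± 0.22), VBP1 (-1.12 ± 0.19), CANX (-0.65 ± 0.12) and PFDN1 (-0.72 ± 0.14).

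**Figure D5:**
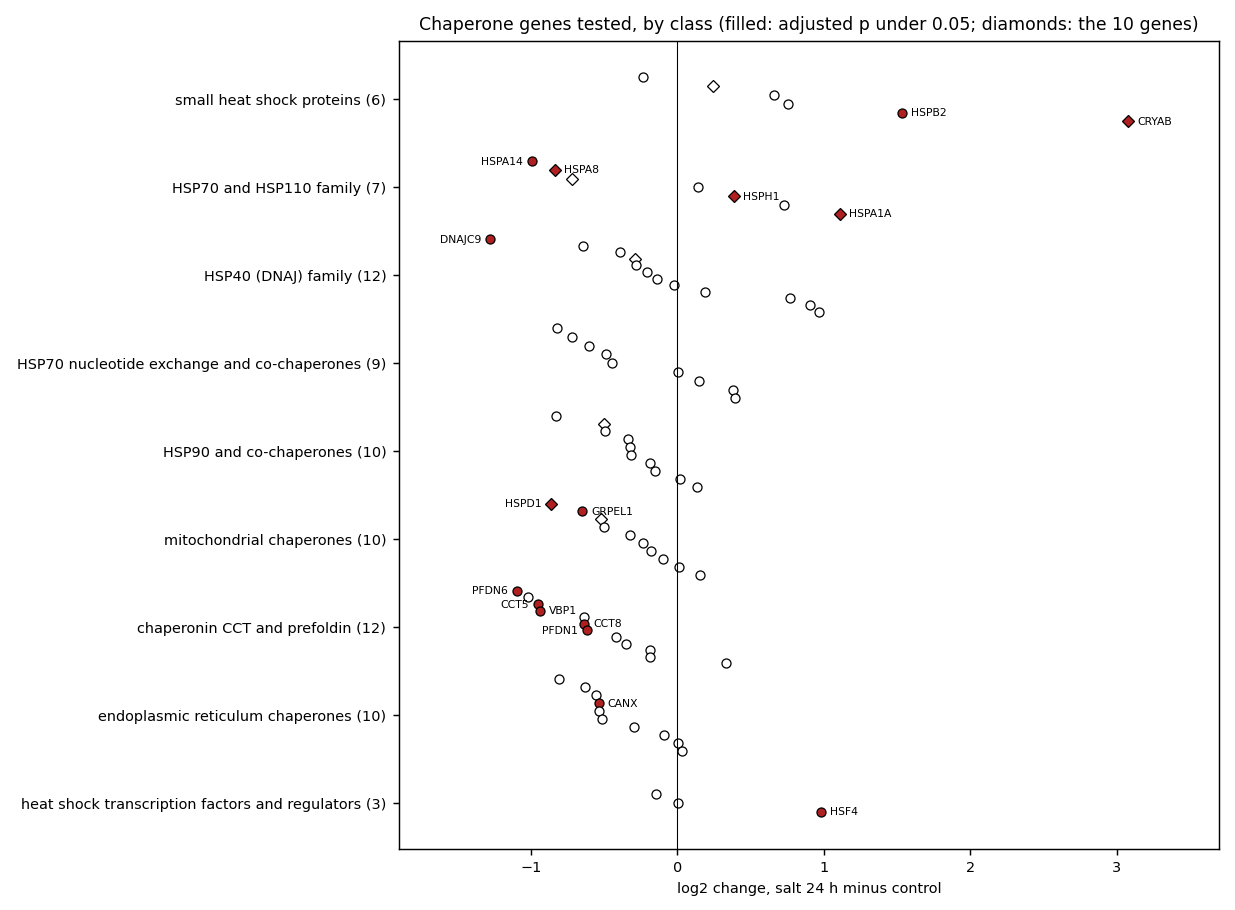
log2 change at 24 h against control of the brightest probe set of each chaperone gene tested, by class with the number of genes, filled where adjusted p was under 0.05 and with diamonds for the 10 heat shock genes. CRYAB and HSPB2 are the filled points above 0 among small heat shock genes, and all 5 filled points of the CCT and prefoldin class lie below 0.

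The genes whose brightest probe sets followed CRYAB most closely over the 9 arrays were MKLN1 (r = 0.99), MRPS6 (0.99), LOC407163 (0.98), PACSIN2 (0.97) and WHAMM (0.97). All were called higher at 24 h than in control, at log2 changes of 0.88 to 3.06. They were picked for likeness to CRYAB on these same arrays, so a rise at 24 h largely followed from the choice. LOC407163, at 3.06, averaged 5.70 at 5 h and 3.87 in control, near the floor. HSPA1A was followed most closely by the stress-induced transcription factor ATF3 (r = 0.97), then XAF1 (0.95), ODF2L (0.92), KIF21A (0.91) and FOXA3 (0.91). HSPD1 was followed by the chaperonin subunit CCT8 (r = 0.996), the proteasome assembly factor POMP (0.996), HNRNPAB (0.99), CHCHD2 (0.99) and TRA2B (0.99). These r describe 9 arrays that share their groups and replicate numbers.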

How the data were processed

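Each of the 9 samples was hybridised to its own 1-colour Affymetrix bovine array. The authors deposited 1 linear intensity per probe set, made with PLIER and Affymetrix Expression Console according to the submitters' processing notes. The software versions were not given in the sources used here. That table holds 24128 probe sets, of which 112 manufacturer controls were left out; 13292 carry 1 gene symbol in the platform annotation, 86 several, and 10638 are unnamed here. No further normalization was applied. The test took log2(intensity + 16) of the deposited intensities and left out probe sets below the 25th percentile of the mean, leaving 18012. A linear model of the 3 groups (limma 3.58.1, R 4.3.3, lmFit and trended eBayes) gave log2 changes, which are understated near the floor. It also gave the adjusted p in the text (Benjamini-Hochberg over all probe sets tested), except where another fit is named beside the value. The number of arrays limits precision. The procedure was tested on simulated data in which every array varied independently. Arrays here shared variation by replicate number, so that test does not cover this feature of the data.

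The replicate numbers pair the samples: deviations of same-numbered arrays from their group means correlated at 0.56 to 0.90, and 9 of 9 arrays correlated best with their own number, although the labels state no shared source. The value with the number as a block is given where it changes a call of the 10 genes, and for some calls that it kept. The block kept every call of the 10 genes made in the main fit. Fits that left out 1 array did not use the block. The brightest probe set stands for a gene. Members, lists, tests and alternatives were chosen with earlier results of these data known. Named genes are the 10 genes, up to 6 called chaperone genes with the smallest adjusted p in a comparison, the 5 genes most correlated with CRYAB, HSPA1A and HSPD1, and the measured muscle markers; the text says which others were named after their values were seen, and the nucleus pulposus markers check the labelled cell type. Sequences, coordinates and promoter motifs were not used here.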

Additional observations from a re-analysis of the deposited data

Results flagged for a closer look

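The changes against control at 24 h and at 5 h differed for 8 probe sets, by the limma test of 24 h minus 5 h, in which the control cancels. The log2 difference was 2.43 for CRYAB, -1.46 and -1.60 for HSPA1A probe sets 4 and 5, -0.79 for HSPA8, -0.82 for the brighter DNAJB1 probe set, -0.57 for the brighter HSP90AA1 probe set, -1.03 for HSPD1 and -0.66 for HSPE1. In all 8, every 24 h array lay beyond every 5 h array.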

How the results depend on the processing

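Of all probe sets, 87 were called at 5 h against control, 1550 at 24 h against control and 2551 at 24 h against 5 h. With the replicate block these were 1056, 6452 and 7884, with only the 6 arrays compared 13 and 792 against control, and with each array centred on its median 57 at 5 h. When 1 array was left out they ranged from 15 to 126, from 304 to 1533 and from 854 to 2429. Among the heat shock probe sets, the replicate block gave 4 higher at 5 h, 10 lower at 24 h against control, and 2 higher and 11 lower against 5 h, while the 6 arrays gave 2 higher at 24 h. With 1 array left out, 0 were called at 5 h, 1 to 4 rose and 1 to 4 fell at 24 h against control, and 1 rose and 3 to 7 fell against 5 h. The values that changed direction were not called in the reported fit, and 1 of them was called after the change, HSPA1A at 24 h against 5 h with all its probe sets averaged (-0.58, adjusted p = 0.039). With each array centred on its median these were HSPA1A and HSPH1 at 24 h against 5 h (-0.036 and -0.057) and HSPA8 and HSPA4 at 5 h (0.036 and 0.081). With all probe sets of a gene averaged they were, beside HSPA1A, HSPH1 at 24 h against 5 h (-0.018) and HSPA4 at 5 h (0.0045). Without the arrays numbered 3, an alternative chosen after seeing the data, they were HSPA4 and HSP90AA1 at 5 h (0.058 and -0.012). With 1 array left out, HSPA1A ran from -0.11 to 0.29 at 24 h against 5 h, and at 5 h HSPA8 ran from -0.19 to 0.067, HSPA4 from -0.20 to 0.24 and HSP90AA1 from -0.026 to 0.18. The cause of these changes was not tested.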
